A study of Mus musculus with 2 samples.

Results

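Immediate early genes are transcribed within minutes of a stimulus, without new protein synthesis, and in neurons they are the first genes to answer synaptic activity. The 10 members described here are the transcription factors Fos, Fosb, Jun, Junb, Egr1, Egr2, Npas4 and Nr4a1, the synaptic protein gene Arc and the nuclear protein gene Ier2. They were chosen by symbol from the 37310 genes of the GENCODE vM1 annotation of the mm9 genome, and all 10 were found there. Their levels were read from 2 RNA-Seq libraries, each of a whole mouse brain at stage E17.5, shortly before birth. BxC is an F1 embryo of a C57BL/6J mother and a CastEi/J father, and CxB is the F1 of the reciprocal cross, from a CastEi/J mother and a C57BL/6J father. The study made these crosses to look for imprinted genes. No stimulus is described, and neither library is a control for activity. Each library came from 1 brain without pooling, and 1 library of each cross was used here, so no test between the crosses was possible. Further BxC brains that the methods describe were not analysed here. The methods name the CxB brain as male and list BxC brains of both sexes. Reads on chromosome Y numbered 1852 on 319 positions in BxC and 18212 on 7336 positions in CxB, the shallower library, so by this measure the libraries differed in sex as well as in cross. Effects of cross, sex, embryo and library therefore cannot be told apart.

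In a resting cell these genes are held ready. Calcium entry or a growth factor activates kinases that phosphorylate factors already bound at the promoter, among them CREB at the cAMP response element (CRE) and SRF with its partners at the CArG box. Fos family proteins pair with Jun family proteins to form AP-1, while Egr1, Egr2, Npas4 and Nr4a1 bind DNA through zinc fingers or a basic helix-loop-helix domain. The products then drive later effector genes such as growth factors and synaptic proteins. The messages are short-lived, and copies of ATTTA in the 3′ UTR are known to speed the decay of several of them.

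The BxC library held 128944754 aligned reads of 36 bases on 36575945 distinct positions, and the CxB library 109719746 reads on 31155725. A read was counted for a gene where any aligned block overlapped an annotated exon, on either strand. The tissue label was checked against markers. All 9 neuron markers were well covered, from 1803 exon reads per kb in BxC and 1457 in CxB for Slc17a6 to 125562 and 92195 for Tubb3. Markers of the other cells a whole brain holds were also present. The summed level in RPM, reads scaled to all aligned reads of the library, was 4291 in BxC and 4034 in CxB for neuron markers, 827 and 852 for radial glia, 156 and 151 for endothelium, 58.6 and 58.2 for microglia and 323 and 359 for choroid plexus. The 3 densest markers per kb were Tubb3, Stmn2 and Neurod2 of neurons, Fabp7, Sox2 and Vim of radial glia, Cldn5, Cdh5 and Kdr of endothelium, C1qa, C1qb and C1qc of microglia, and Ttr, Clic6 and Folr1 of choroid plexus. In bulk RNA, fewer cells of a type and less RNA per cell cannot be told apart.

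Promoter sequence was taken from the RefSeq promoter table on GRCm38.p6, which gives 250 bases before to 50 bases after each listed start. It matched 7 members. Egr1, Arc and Ier2 were not matched. The bases TGACG, the core of a CRE, or CGTCA on the other strand, stood in the promoters of 6 of these 7 (Fos, Fosb, Junb, Egr2, Npas4 and Nr4a1) and in 23.0% of 27025 genes. The match nearest to the start is shown in capitals for each, since it is the element that most of the set shares.
Fos (GRCm38.p6 chr12:85473812-85473841, + strand): agttccgcccagTGACGtaggaagtccatc
Fosb (GRCm38.p6 chr7:19310088-19310117, - strand): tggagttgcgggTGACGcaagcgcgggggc
Junb (GRCm38.p6 chr8:84978837-84978866, - strand): gcttcctgacagTGACGcgagccgcctcct
Npas4 (GRCm38.p6 chr19:4990123-4990152, - strand): gacgtcacgggaTGACGtcggaagtctggg
Nr4a1 (GRCm38.p6 chr15:101266794-101266823, + strand): cccctctccatgCGTCAcggagcgcttaag
Egr2 (GRCm38.p6 chr10:67537802-67537831, + strand): tatgggcagcgaCGTCAcgggtattgaaga

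The full palindrome TGACGTCA, which contains this core, stood in 0 of the 7 and in 2.03% of all genes. A CArG box, the element bound by SRF, was matched in Egr2 alone among the 7 and in 1.81% of all genes. The Egr2 match nearest to its CRE core is shown with the box in capitals.
Egr2 (GRCm38.p6 chr10:67537787-67537816, + strand): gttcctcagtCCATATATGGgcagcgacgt

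TATAAA was found in Fos and Junb and in 15.7% of genes, and GCGGGGGCG, the letters of an Egr site, in Fosb and Nr4a1 and in 3.31% of genes. All motifs were searched on both strands. A match describes the letters in this window only. Some genes have several starts in the table, and a gene was counted once if any of its promoters matched.

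The 3′ UTRs of 8 of the 10 members held at least 1 ATTTA, against 63.7% of 17693 genes with a 3′ UTR of at least 100 bases. Fos and Jun had 4 copies each, Egr2 and Nr4a1 had 3, Junb and Egr1 had 2, Npas4 and Fosb had 1, and Ier2 and Arc had 0. Per kb of 3′ UTR the members' median was 2.07 copies and that of all genes 1.17. The longer element TTATTTATT stood only in Fos among the members, and in 6.58% of all genes. It lies in the 3′ UTR within the last exon of Fos and is shown in capitals.
Fos (mm9 chr12:86818053-86818082, + strand): tgttttcaatTTATTTATTaagatggattc

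Jun stood highest of the 10, while the other AP-1 genes lay in the middle (Junb) and at the low end (Fos and Fosb). Jun encodes the best known DNA-binding partner of Fos proteins and is a single exon on mm9 chromosome 4, from 94715725 to 94718913. It had 4937 exon reads in BxC and 4210 in CxB, or 1548 and 1320 reads per kb, with exact Poisson intervals at 95% of 1505 to 1592 and 1281 to 1361. That placed Jun above 83.2% of 22380 coding genes in BxC and above 83.3% in CxB. Junb, a related partner with weaker activating power, is a single exon on chromosome 8 (87500811 to 87502617) and had 644 and 555 exon reads, or 356 and 307 per kb.

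Fos and Fosb were far lower than either Jun gene. Fos, the classic marker of recent activity, has 4 exons on chromosome 12 (86814840 to 86818223) and had 139 exon reads in BxC and 141 in CxB, or 59.1 and 59.9 per kb. Fosb, whose truncated form accumulates after repeated stimulation, lies on chromosome 7 (19888070 to 19895394) and was the lowest of all, with 58 and 51 exon reads, or 15.5 and 13.6 per kb. Fosb still lay above 30.8% of coding genes in BxC, since many coding genes had few reads or 0. All intervals here cover counting error only, and reads amplified from 1 molecule are not independent.

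Among the other transcription factors, Nr4a1, Egr1 and Npas4 were high and Egr2 low. Nr4a1 encodes the orphan nuclear receptor Nur77, on chromosome 15 from 101097277 to 101105223. It had 2023 exon reads in BxC and 1577 in CxB, or 818 and 637 per kb. Egr1, a zinc finger factor induced by most forms of neuronal activity, lies on chromosome 18 (35020861 to 35024638) and had 1867 and 1237 exon reads, or 602 and 399 per kb.

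Npas4 is a basic helix-loop-helix factor known for its narrow dependence on calcium entry and its role in forming inhibitory synapses. It lies on chromosome 19 (4984355 to 4989971) and had 1540 and 1351 exon reads, or 470 and 412 per kb. Its level per kb was below that of Egr1 in BxC, not separable from it in CxB, and above that of Fos in both libraries. Egr2, which is best known for hindbrain patterning and Schwann cell myelination, lies on chromosome 10 (66998223 to 67004936) and had 83 and 80 exon reads, or 24.4 and 23.5 per kb.

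Arc and Ier2 are not DNA-binding activators of the same kinds. Arc encodes a cytoskeleton-associated protein that helps remove AMPA receptors from synapses, and its gene lies on chromosome 15 from 74499513 to 74503000. It had 561 exon reads in BxC and 545 in CxB, or 184 and 178 per kb, close to the median coding gene at 203 and 173. Ier2, a nuclear regulator first described as a rapid growth factor response gene, is a single exon on chromosome 8 (87185230 to 87186751) with 409 and 382 exon reads, or 269 and 251 per kb.

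**Figure D1:**
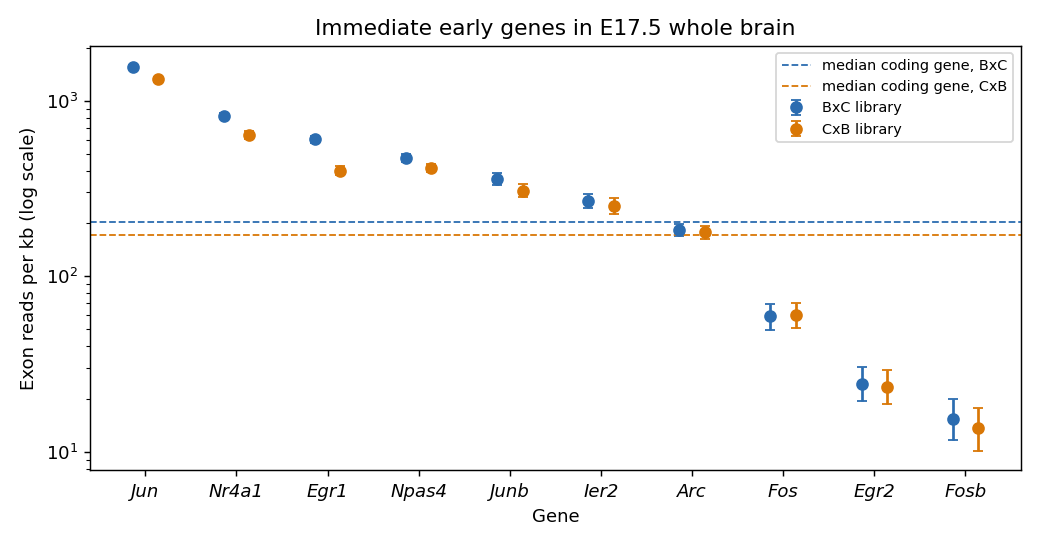
Exon reads per kb (vertical axis, log scale) of the 10 genes in the BxC and CxB libraries, with exact Poisson intervals at 95%, not scaled for library size. Jun stood at 1548 and 1320 and Fosb at 15.5 and 13.6; the dashed lines mark the median coding gene at 203 in BxC and 173 in CxB.

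The order of the levels was nearly the same in both brains. From the top it ran Jun, Nr4a1, Egr1, Npas4, Junb, Ier2, Arc, Fos, Egr2 and Fosb in BxC, and only Egr1 and Npas4 traded places in CxB. In CxB the counting intervals of Npas4 and Egr1 overlapped (391 to 435 and 377 to 422 reads per kb). In BxC those of Egr2 and Fosb overlapped. All other neighbours in either order had intervals apart. The median of the 10 was 313 reads per kb in BxC and 279 in CxB. By distinct positions it was 162 and 144, since each position held 1.35 (Fosb) to 3.29 reads (Jun) in BxC.

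Whether the 2 brains differed in these genes was described by the log2 ratio of CxB over BxC in RPM. It was given where a gene had at least 100 exon reads in each library, which 8 of the 10 members and 15427 genes in all had. Of the 8, 0 passed a 2-fold difference, beside 0.136% of all genes (0.0713% higher and 0.0648% lower in CxB). Their median ratio was 0.03 and that of all genes -0.001, with the middle 95% of all genes between -0.38 and 0.37.

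The largest difference among the 8 was that of Egr1, which was lower in CxB at -0.36 (exact conditional binomial interval at 95% from -0.47 to -0.26). A ratio at or below this was found in 2.94% of all genes. Nr4a1 was lower at -0.13 (-0.22 to -0.03) and Arc higher at 0.19 (0.02 to 0.36). These were the 3 of 8 whose counting interval left out 0, beside 51.3% of all genes, a background above the members' share.

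The remaining 5 ratios had intervals that spanned 0. That of Fos was 0.25 (-0.09 to 0.60), Ier2 0.13 (-0.07 to 0.34), Npas4 0.04 (-0.06 to 0.15), Junb 0.02 (-0.15 to 0.18) and Jun 0.00 (-0.06 to 0.06). With under 100 reads in each library, Egr2 (0.18, from -0.28 to 0.64) and Fosb (0.05, from -0.52 to 0.62) have intervals too wide to show a difference of the size seen in Egr1.

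Counting each distinct position once moved the 3 ratios toward 0. Egr1 was then at -0.11 (-0.28 to 0.06), Nr4a1 at -0.01 (-0.17 to 0.15) and Arc at 0.05 (-0.18 to 0.28). Fos and Ier2 also came closer to 0 (0.01 and -0.01), while Jun, Junb and Npas4 moved away from it (0.10, 0.12 and 0.13). With distinct positions 0 of 8 intervals left out 0, beside 16.5% of all genes. The share over all genes thus fell as well, from 51.3% with all reads, so the fall is not particular to the members. Egr1 reads per position were 2.88 in BxC and 2.42 in CxB, and those of Nr4a1 2.90 and 2.67. Whether amplification had a part in these ratios was not tested.

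**Figure D2:**
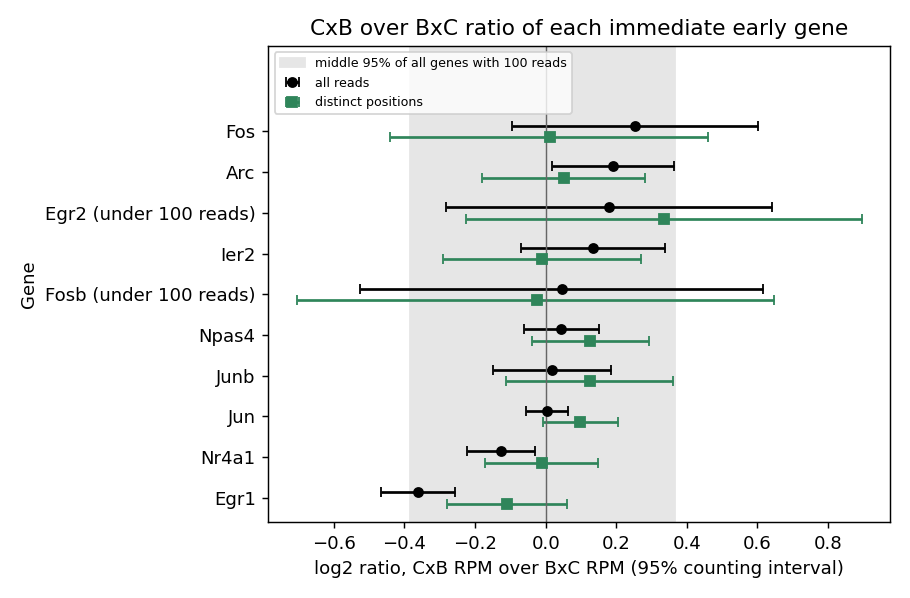
Log2 ratio of CxB over BxC (horizontal axis, RPM) of the 10 genes from all reads and from distinct positions, with 95% counting intervals and, in grey, the middle 95% of all genes. Egr1 lay at -0.36 with all reads and at -0.11 with distinct positions, and the intervals of the distinct-position ratios all span 0.

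Blood and connective tissue markers had ratios mostly below 0. The densest erythroid markers were Hbb-b1, Hba-a1 and Hba-a2, and the densest meningeal ones Col1a1, Col3a1 and Col1a2. Of 9 erythroid markers 6 had 100 reads in each library, all 6 were lower in CxB, and their median ratio was -0.34. The counting interval lay below 0 in all 6, beside 25.8% of all genes. The ratios ran from -0.51 for the heme synthesis gene Alas2 to -0.28 for Hba-a1, and the summed level of the list was 294 RPM in BxC and 236 in CxB. The embryonic globins Hbb-bh1 and Hbb-y, at 0 reads in both and at 2 and 0, were at or under the limit of 3 reads that a count of 0 allows. Meningeal and fibroblast markers were below 0 in 5 of 6, with a median of -0.13 and summed levels of 467 and 418 RPM. The counting interval lay below 0 in those 5, again beside 25.8% of all genes. The all-gene median ratio was -0.001. Microglia markers were also below 0 in 5 of 6 (median -0.05), but with 0 intervals below 0. Endothelial markers were below 0 in 4 of 7 (median -0.07), with 3 intervals below 0. Neuron, radial glia and choroid plexus markers were above 0 in 5 of 9, 5 of 7 and 3 of 4. The part of blood and connective tissue in the ratios of Egr1 and Nr4a1 was not tested.

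Shared bases had little weight in these values. Jun shares 232 exon bases with BC042782, which took 258 of its reads in BxC and 263 in CxB, and its ratio without them was -0.01. Egr1 shares 8 exon bases with Gm17507, with 1 read in each library, and stayed at -0.36.

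Reads within introns were counted next. They can come from unspliced RNA, but reads of other transcripts on either strand cannot be told apart from it. Jun, Junb and Ier2 have no intron. An intron read had all of its bases in an intron and touched no exon of the gene or of another gene, and the intron share is its part of intron plus exon reads. Nr4a1 had by far the most, with 362 intron reads in BxC and 291 in CxB. Its share was 15.2% (Clopper-Pearson interval at 95% from 13.8 to 16.7) in BxC, and 15.6% in CxB. An intron share at least as large was found in 58.4% and 57.7% of 14472 genes, so by share Nr4a1 was the highest among the members but not high among all genes. The intervals of Fosb (7.28 to 25.4) and Egr2 (8.12 to 23.0) in BxC, and of Fosb in CxB (3.96 to 21.5), take in the Nr4a1 share.

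The introns of the other members held few reads. Npas4 had 27 intron reads in BxC and 14 in CxB (1.72% and 1.03%), Egr1 had 10 and 4 (0.533% and 0.322%), and Arc had 4 and 2 (0.708% and 0.366%). These 3 genes gave almost only exon reads. Fos had 10 and 4 (6.71% and 2.76%), Egr2 14 and 6 (14.4% and 6.98%) and Fosb 10 and 6 (14.7% and 10.5%), where the counts leave wide intervals. That of Fos in CxB ran from 0.757% to 6.91%.

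The median share of the 7 members with introns was 6.71% in BxC and 2.76% in CxB, against 19.0% and 19.1% over all genes. Intron length enters that share. Set per kb instead, intron density was 8.09% and 6.47% of exon density at the members' median, against 4.11% and 4.09% for all genes. The members' median thus lay below that of all genes by share and above it by density. By density Nr4a1 was not the highest member. In BxC Fosb (18.1%), Egr2 (17.1%) and Fos (16.4%), from 10, 14 and 10 intron reads, lay above Nr4a1 (8.09%). Arc (5.06%), Npas4 (2.46%) and Egr1 (2.45%) lay below it. In CxB Fosb (12.3%, from 6 intron reads) lay above Nr4a1. The all-gene values cover genes with at least 100 exon reads in each library, which Egr2 and Fosb did not reach. In CxB Fos (6.47%, from 4 intron reads) and Nr4a1 (8.34%) lay above the all-gene density median. Arc (2.60%), Egr1 (1.48%) and Npas4 (1.45%) lay below it, so the members' place by density in CxB depends on Egr2 and Fosb.

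The intron reads of Nr4a1 lay mostly in 1 intron. Intron 1, of 3111 bases, held 109 reads per kb in BxC and 84.2 in CxB, while each of its other introns held at most 24.4. In Npas4 the first intron was almost empty, at 0.0737 and 1.33 reads per kb, beside 700 and 743 in exon 1. The highest values in Npas4 introns were 30.8 and 17.9, in intron 6.

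**Figure D3:**
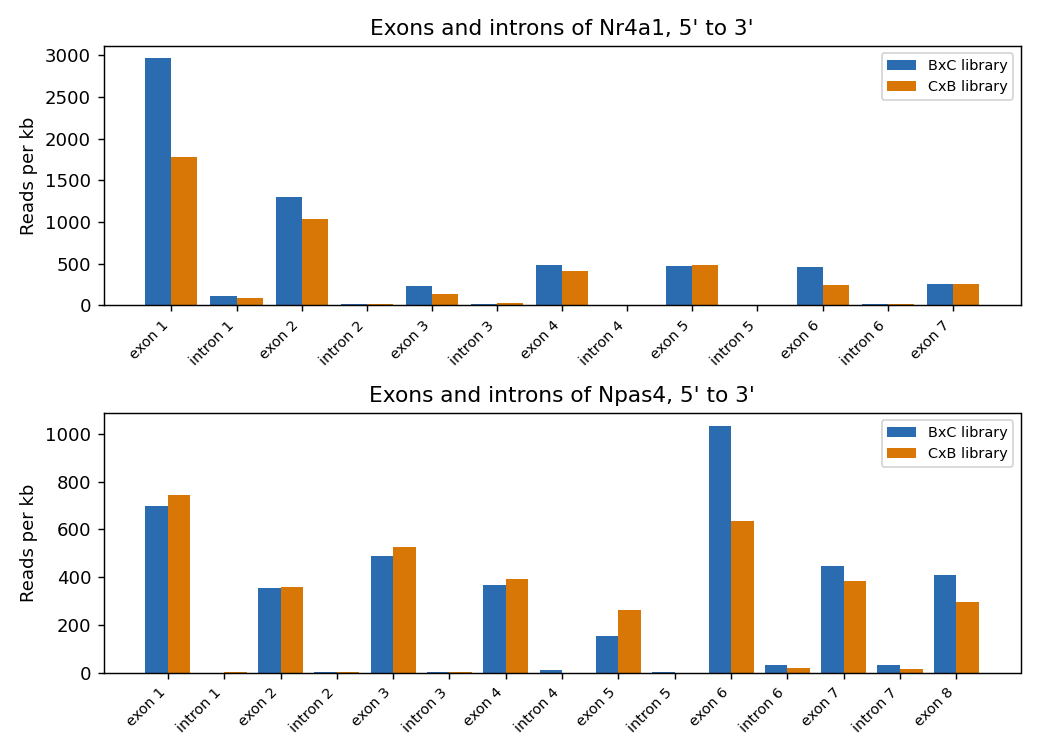
Reads per kb (vertical axis) over each exon and intron of Nr4a1 and Npas4 from 5′ to 3′, in the BxC and CxB libraries. Nr4a1 held 2961 and 1778 in exon 1, 229 and 139 in exon 3 and 260 in exon 7, with 109 and 84.2 in intron 1, while the introns of Npas4 held at most 30.8 beside exons at 153 to 1036.

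Reads were not even along the transcripts. Each longest coding transcript was divided into 3 equal parts, and the read density at the 5′ end was set against that at the 3′ end on the log2 scale. Nr4a1 was at 2.78 in BxC and 2.37 in CxB, Egr2 at 2.45 and 3.26, Junb at 2.00 and 2.19, and Fos at 1.83 and 2.48. All 4 lay above the median of 13884 coding genes with at least 100 exon reads in each library, which was 0.70 and 0.63. So did Egr1 (1.63 and 1.77) and Npas4 (0.77 and 1.14). Thus 6 of 10 members were above that median in each library, counting Egr2, which like Fosb had under 100 reads. Jun (0.57 and 0.63) and Ier2 (0.38 and 0.25) were below it, and Arc (-0.19 and -0.05) and Fosb (-0.96 and -0.59) lay below 0. Few reads stand behind some of these values. The 3′ part of Egr2 held 8 reads in BxC and 5 in CxB, that of Fos 16 and 10, and that of Fosb 11 and 15 against 5.67 and 9.97 in its 5′ part, where a read across a border counts in part. By distinct positions Fosb in CxB was at -0.01, so no direction was read for it.

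In Nr4a1 the first exons were the densest. Exon 1 (126 bases) held 2961 and 1778 reads per kb, exon 2 held 1299 and 1035, and exon 7, the last, 260 in both libraries. The fall was not steady, since exon 3 held 229 and 139 and exon 4 held 479 and 411. By distinct positions exon 1 held 447 and 343 per kb against 131 and 140 in exon 7. Whether repeated reads had a part in the height of exon 1 was not tested. With distinct positions the 5′ over 3′ value of Nr4a1 fell to 1.88 and 1.48, beside a median of 0.53 and 0.54 in the same 13884 coding genes. With all reads, the 3′ UTR held fewer reads per kb than the coding sequence in all 10 members, in both libraries. The same held in 74.3% (BxC) and 72.6% (CxB) of 12718 coding genes with a 3′ UTR of at least 100 bases. In Fos the 3′ UTR density with all reads was 22.1 against 88.6 in BxC and 13.7 against 105 in CxB. By distinct positions the order was reversed for Arc in CxB, at 102 per kb in the 3′ UTR against 83.1 in the coding sequence. It was also reversed for Fosb in BxC, a gene with few reads. In every other case the coding sequence stayed higher by distinct positions.

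**Figure D4:**
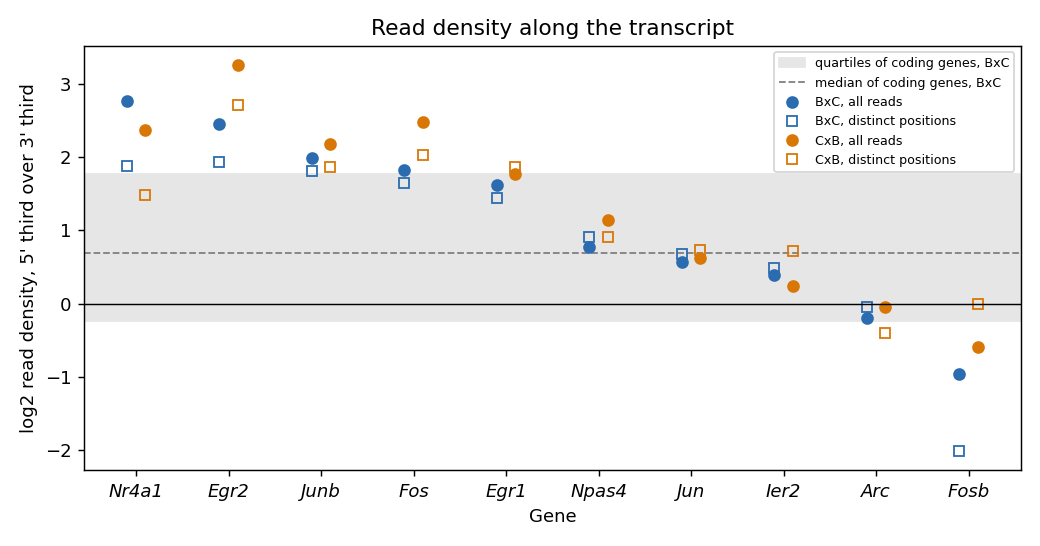
Log2 of the read density in the 5′ part over that in the 3′ part of each transcript (vertical axis), for all reads and distinct positions, with the median and quartiles of coding genes in BxC. Nr4a1, Egr2, Junb and Fos stood at 1.83 to 3.26 with all reads, and Arc and Fosb below 0.

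Reads also stood before the annotated starts of some members. In the 2 kb before the start, counted where no exon is annotated, Npas4 had 343 reads per kb in BxC and 344 in CxB. That level was reached by 4.56% and 4.08% of coding genes with at least 100 exon reads in each library. Jun had 153 and 117, Nr4a1 108 and 103, and each of the other 7 at most 19.1. The median over coding genes with that minimum was 14.4 and 12.1.

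The stretches before Npas4 and Nr4a1 were followed outward in bins of 1 kb, after their values over 2 kb had been seen. Before Npas4, 12 bins in a row held at least 20 reads in each library, with 3072 reads in BxC and 2757 in CxB on 1501 and 1237 distinct positions. The fourth bin held 499 and 494, above the density of the Npas4 exons in each library. The next bin outward held 2 and 7 reads. The nearest gene in that direction in this annotation, Slc29a2, began 34.0 kb away.

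Before Nr4a1 the run was 13 bins, with 2000 reads in BxC and 1623 in CxB on 936 and 753 positions. Its outermost bin was also its highest in both, at 388 and 334, and the bin beyond it held 0 reads in each. The nearest gene on that side, Grasp, ended 34.1 kb away. A run of at least 12 such bins free of annotated exons was found in 0.223% of 13884 coding genes, and one of at least 13 in 0.180%. A bin with an annotated exon ended a run, so genes with close neighbours could not reach this length. Counted from the start outward, Arc had a run of 1 bin and the other 7 members of 0. In Jun the first bin, with 180 and 131 reads, holds an annotated exon and so ended the run. Bins with at least 20 reads farther out were not counted. Among them, bins 6 to 8 in a row held 27, 40 and 28 reads in BxC and 30, 23 and 24 in CxB.

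Spliced reads joined points within the stretch before Nr4a1. An intron of 3956 bases, from 12.5 to 8.54 kb before the start (mm9 chr15, 101084783 to 101088738), was crossed by 89 reads on 10 positions in BxC and by 92 on 12 in CxB. The junction of Nr4a1 exons 1 and 2 was crossed by 44 reads on 19 positions in BxC and by 19 on 9 in CxB. The distal intron thus had more reads in each library, but fewer distinct positions in BxC. The bases at its ends are shown because they give its direction, with the first and last bases of the intron in capitals. They are GT and AG on the + strand, the strand of Nr4a1.
5′ end of the intron (mm9 chr15:101084768-101084797, + strand): agcccgctgggccagGTgaggggctggagc
3′ end of the intron (mm9 chr15:101088724-101088753, + strand): ctaattcctccacAGgccaccatggacaga

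A further intron of 2228 bases was crossed by 1 read in BxC and 2 in CxB, and one of 496 bases by 4 and 0. Of the 94 spliced reads in the stretch in each library, 0 reached into the annotated gene, and before Npas4 there were 0 spliced reads. Per the methods, spliced reads were found by aligning to junctions built from the authors' gene models. A junction outside those models could not be seen, so these counts of 0 do not show that splicing was absent. Intron 1 of Npas4, next to its first exon, was almost empty, whereas intron 1 of Nr4a1 had a density like that of the kb before its start (82 and 68 reads). The later RefSeq records of both genes, on GRCm38.p6, span more sequence than the models used here, but coordinates were not compared between the builds. Whether the reads before the starts belong to Npas4 and Nr4a1 was not tested.

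**Figure D5:**
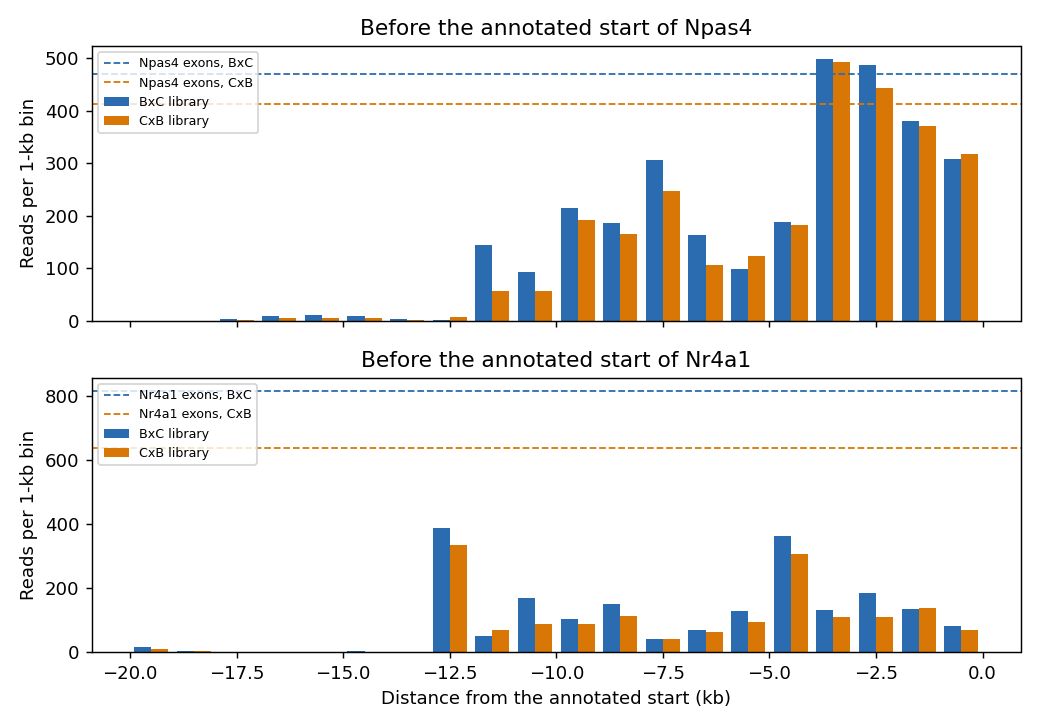
Reads per 1-kb bin (vertical axis) by distance before the annotated start of Npas4 and Nr4a1, in kb, in the BxC and CxB libraries, with each gene's own exon reads per kb dashed. Reads ran for 12 kb before Npas4 and 13 kb before Nr4a1, and the bins beyond held 2 and 7, and 0 and 0.

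Splice junctions within the genes were thinly covered. Nr4a1 had 92 junction reads in BxC and 45 in CxB, Npas4 had 38 and 50, Fos 15 and 21, Arc 9 and 11, Egr1 10 and 4, Egr2 0 and 1, and Fosb 1 and 0. Of these, a junction of Npas4 that skips exon 5 and is not in the annotation had 1 and 2 reads, and one of Nr4a1 that skips exon 4 had 0 and 1. Such counts do not allow a ratio of forms. The short form of Fosb is made by removing an intron within its last exon. The annotation does not hold that intron, and no spliced read lay there. Such a read could be seen only if the authors' gene models held the intron, so its absence says nothing about the short form. At 58 and 51 exon reads the share of that form was not detectable.

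Other genes of the same response were counted the same way. Of 34 other primary response genes 31 had 100 reads in each library, and 0 passed a 2-fold difference. Their median ratio was 0.05, and the counting interval lay above 0 in 12 and below 0 in 7, beside 25.4% and 25.8% of all genes. The densest per kb were Jund, the constitutive Jun family gene, with 8341 reads per kb in BxC and 7842 in CxB, Rheb, an activator of mTOR, with 2087 and 1960, and Zfp36l1, which binds ATTTA elements, with 2238 and 1721. Jund thus had a higher density than any of the 10 members in both libraries.

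Later effector genes and the upstream machinery had higher median densities than the members. Of 15 effectors 14 had 100 reads in each library, 0 passed 2-fold and the median ratio was 0.02, with 5 intervals above 0 and 2 below (25.4% and 25.8% over all genes). The effector under that minimum, Ptgs2, had 36 and 15 exon reads and a ratio of -1.03 (-2.01 to -0.13). The kinase gene Plk2 had 7126 and 5958 reads per kb, and the secreted neuropeptide precursor genes Vgf and Scg2 had 5166 and 4792, and 3981 and 3728. All 27 signalling and transcription factor genes upstream of the response had 100 reads, 0 passed 2-fold and the median was -0.001, with 10 intervals above 0 and 6 below, again beside 25.4% and 25.8% of all genes. By the sum over both libraries the densest were the ERK kinase gene Mapk3, with 9900 and 8067 reads per kb, and Mef2d (4271 and 3526) and Mef2c (3086 and 3005), which encode calcium-responsive factors. In BxC alone Crtc1 (3219), Map2k2 (3167) and Camk2b (3130) lay above Mef2c. The list medians were 1480 and 1251 reads per kb for the upstream genes, 854.6 and 749.9 for the effectors, 445 and 365 for the other primary response genes and 313 and 279 for the 10 members.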

How the data were processed

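Per the labels, polyadenylated RNA of whole E17.5 brains was made into Illumina libraries, of which 1 per cross was used here. The authors aligned reads of 36 bases, and the submitters' notes name Novoalign and mm9 (version not given in the sources used here). The deposited alignments carry whole-number counts on each line, used as identical reads collapsed to that line, a meaning inferred from the values. Summed this way, both libraries exceed the average yield of reads that the methods state, so the totals rest on that inference. No normalization had been applied to these counts. The methods describe dUTP strand marking, but 43.2% (BxC) and 42.6% (CxB) of coding-gene exon reads lay on the gene's strand, so reads of overlapping genes on either strand cannot be told apart. The deposited catalog of imprinted genes was not used, and 0 columns could not be assigned.

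Reads were summed over exons and introns of GENCODE vM1, which is on the same build, with Python 3.11.15, NumPy 2.4.6, pandas 2.3.3, SciPy 1.17.1 and Numba 0.67.0, after counting and intervals were tested on simulated data. RPM used 128944754 (BxC) and 109719746 (CxB) reads. Levels carry exact Poisson intervals and ratios and shares Clopper-Pearson intervals, at 95%, for counting error only. A count of 0 allows up to 3 reads, or 0.0233 and 0.0273 RPM. With 1 library per cross there is no test. Ratios needed 100 exon reads in each library. Alternatives were distinct positions, sense reads only, scaling by the median ratio, totals without chromosomes X and M, a minimum of 10 reads, the longest transcript, all intron bases and, added after seeing the data, exon bases shared with no other gene and distinct positions along the transcript.

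All 10 members were described in full. From each other list the text names the 3 genes with the most reads per kb summed over both libraries, any past 2-fold and any at 0. Alas2, Slc17a6, Crtc1, Map2k2, Camk2b, Ptgs2, Hbb-y, BC042782, Gm17507, Slc29a2 and Grasp were named after their values or positions were seen. Members and lists were chosen with earlier results of these data known. Map2 was matched as Mtap2 through RefSeq synonyms.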

Additional observations from a re-analysis of the deposited data

How the results depend on the processing

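The members' summary values moved as follows under the alternatives run. The median reads per kb of the 10 genes ranged from 142 (sense reads) to 313 in BxC and from 127 to 279 in CxB, and their median log2 ratio from 0.03 to 0.05. Of the 10 genes, 0 passed 2-fold under the alternatives run. The median intron share ranged from 6.71% to 12.1% in BxC and from 2.76% to 4.82% in CxB; the share over all genes was not recomputed under them. Of 34 alternatives for single genes' ratios, 31 stayed within the counting interval; Jun (0.10), Egr1 (-0.11) and Nr4a1 (-0.01) by distinct positions did not. No paired analysis was possible because each cross has 1 library. For the same reason no library could be left out. With 139 and 141 exon reads, Fos allows a ratio of -0.09 to 0.60, so depth limits Fos, Egr2 and Fosb most.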
